A study of Mus musculus with 8 samples.

Results

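General epithelial genes were examined in whole embryonic mouse stomach at E13.5: 35 genes for adhesion at the cell border, junctions, keratin filaments, apical and basal polarity, membrane trafficking, a cell surface protease cascade, epithelial splicing and the transcription factors of this program. They were chosen by name, by a rule that holds no measured value but was written with earlier results of these data known, and leaving out claudins and endodermal factors, from 26747 assembled loci of which 23165 carried a gene name. All 35 were found, 34 under a single gene name and Krt8 in a joined locus with Krt73, and all 35 passed the filter on low counts. The Cgn locus overlaps Selenbp2, Ovol1 overlaps Gm962 and Myo5b overlaps 1700120E14Rik, all with whole counts. Overlaps of Tjp3, Crb3, Prss8 and Esrp2 are given below. GENCODE classes each of them as a protein-coding gene.

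Messenger RNA was measured in 4 wild type libraries and 4 NKX3.2Cre;R26-YAP5SA libraries (called YAP5SA here), from freshly dissected and frozen stomachs. YAP is the transcriptional coactivator that the Hippo kinases hold in check, and YAP5SA is a form whose inhibitory phosphorylation sites are changed to alanine. The transgene sits at the Rosa26 locus and is switched on by a Cre recombinase driven by Nkx3-2, a gene of the mesenchyme that surrounds the gut epithelium, so the epithelium itself is not the layer in which the driver is known to act. No sample is labelled as carrying Cre alone, and the labels do not say whether the wild type embryos carried Cre, so effects of Cre and of YAP5SA cannot be told apart. The labels also do not say whether a library is 1 embryo or a pool. Fragments assigned to all loci ranged from 6328344 to 6919353 in wild type libraries and from 7293556 to 8513116 in YAP5SA libraries. Yap1 itself lay at 203.6 to 233 CPM (counts scaled to the size of each library) in YAP5SA libraries and 225 to 239.6 CPM in wild type. The sources used here do not say whether transgene RNA would be counted at that locus, so Yap1 does not check the labels. Ankrd1, a well known YAP target, lay at 21.9 to 69.2 CPM in the YAP5SA libraries and at 0 to 0.95 CPM in wild type.

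Epithelial cells hold together through adherens junctions built on E-cadherin, desmosomes that anchor keratin filaments, and tight junctions that seal the space between cells. Polarity proteins separate the apical from the basolateral surface, and dedicated trafficking proteins deliver cargo to each. Grainyhead-like and OVOL transcription factors activate or protect this program, and the ESRP proteins impose epithelial patterns of alternative splicing on many transcripts.

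The library numbered 1 stood apart for these genes in each genotype. It held the highest value among the wild type libraries for 29 of the 35 genes and the highest among the YAP5SA libraries for 30 of the 35. The share of all loci highest in these libraries was not computed, and genes measured in the same libraries are not independent. The summed level of the 35 genes was 2846 CPM in wild type 1 against 2417, 2457 and 2550 CPM in the other wild type libraries. It was 2057 CPM in YAP5SA 1 against 1509, 1623 and 1632 CPM in the other YAP5SA libraries. Pancreas markers were also highest in wild type 1, at a summed 306.6 CPM against 94.9 to 174.1 CPM, and the part of such differences in the epithelial values was not tested.

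Most of the epithelial program was lower in the YAP5SA stomachs. By edgeR's quasi-likelihood test with Benjamini-Hochberg adjustment over 14574 loci, 26 of the 35 genes were lower at an adjusted p under 0.05, 1 was higher (Grhl1) and 8 were not called. Of all loci tested, 18.9% were called, 9.85% lower and 9.06% higher. The genes called lower fell by 0.29 (Krt18) to 1.77 (Ovol1) on the log2 scale, and 15 of them fell at least 2-fold, a class that held 3.75% of all loci. The median log2 fold change of the 35 genes was -0.83, against -0.01 for all loci tested. CPM give each gene's share of its library. In this bulk tissue, fewer epithelial cells, less RNA per epithelial cell and more RNA from other cells cannot be told apart.

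The 2 genotypes did not overlap for 25 of the 26 genes called lower. These genes were picked by their p on the same libraries, so the lack of overlap is no further support. Over all 35 genes, 27 were lower in every YAP5SA library than in any wild type library and 1 was higher in every one, while 12.4% and 10.9% of all loci were. The call was kept for 23 of the 26 when any single library was left out, and was lost in at least 1 such fit for Krt18, Myo5b and Ovol2. The share of all called loci that kept their call was not computed. YAP5SA 1 held the highest YAP5SA value for 25 of the 26 genes called lower, so larger falls without it were built in for those 25. Leaving out YAP5SA 1 made all 26 falls larger, by a median of 0.19 on the log2 scale, and moved the median of the 35 genes to -1.02. Without both libraries numbered 1 the median was -0.95. The labels state no pairing, but replicate numbers were taken to pair the libraries from weak correlations between same-numbered libraries. With the number as a block, 29 genes were lower and 2 were higher, against 10.9% and 9.91% of all loci (20.8% in either direction). That fit added Marveld3, Dsg2 and Epn3 to the lower genes and Pkp2 to the higher ones.

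**Figure D1:**
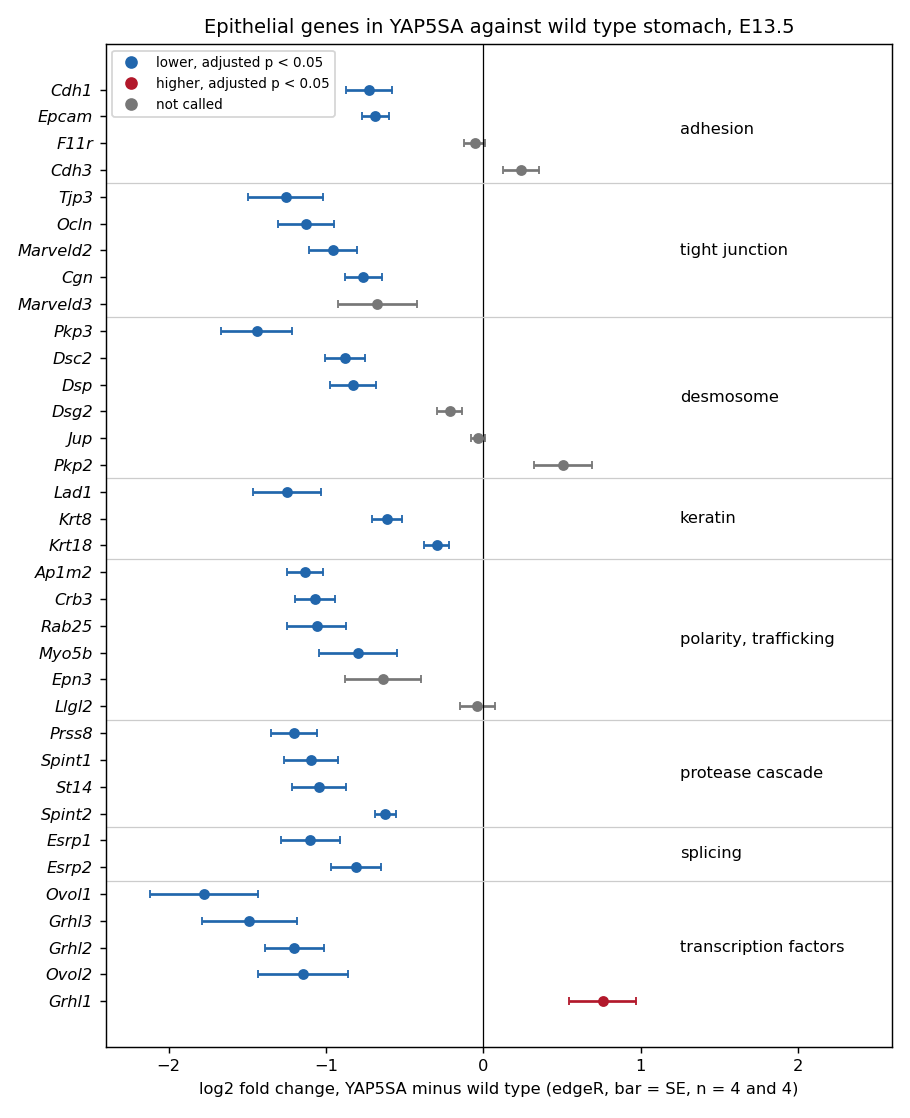
Log2 fold change of each of the 35 epithelial genes, YAP5SA minus wild type (edgeR, 4 libraries a group), grouped by role and with the standard error as a bar. Genes called lower (blue) fill most roles, Grhl1 (red) is the gene called higher, and F11r, Jup and Llgl2 sit next to 0.

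The promoters of these genes are shown as a description of their sequence. RefSeq promoter sequences on GRCm38.p6 were matched for 19 of the 35 genes, 16 of them called lower, and the 250 bases before the start site were searched on both strands. The E-box CAGGTG or CACCTG, which SNAI and ZEB repressors bind, was present in 11 of the 19 (57.9%), 10 of them called lower, and in 19.4% of 27025 genes with a window of the same length. The Grainyhead-like motif AACCNGTT or AACNGGTT was present in Cgn and Rab25 (10.5%) and in 2.0% of all genes. The TEAD motif GGAATG or CATTCC was present in Crb3 (5.3%) and in 14.4% of all genes. The OVOL motif CCGTTA or TAACGG was present in Crb3 and in 2.52% of all genes. No matches overlapped each other in the windows of these genes. A match describes the letters of the window and is not a measured binding site. Cdh1, Grhl2, Esrp1, Esrp2 and St14 were among the genes without a window, and the comparison genes were not limited to expressed ones. The part of any motif in the falls was not tested.

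Windows of 4 genes follow, 5′ to 3′ on the gene's strand with motif matches in capitals. Epcam has 2 E-boxes, Rab25 has 2 E-boxes after a Grainyhead-like match, and Ap1m2 has 4 E-boxes; all 3 genes were lower. Grhl1, the gene that was higher, has no match to any of the 4 motifs. The E-box did not follow the calls throughout: 6 of the 16 matched genes that were lower had none (Lad1, Spint1, Ovol2, Cgn, Dsp and Marveld2), and F11r, which was not called, had 1.
Epcam (chr17:87635729-87635978, plus strand): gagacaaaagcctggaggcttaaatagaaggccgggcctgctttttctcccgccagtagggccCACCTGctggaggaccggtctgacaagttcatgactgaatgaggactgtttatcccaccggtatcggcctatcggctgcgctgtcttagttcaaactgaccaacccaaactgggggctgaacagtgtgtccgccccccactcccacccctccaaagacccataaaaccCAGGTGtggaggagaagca
Rab25 (chr3:88548280-88548529, minus strand): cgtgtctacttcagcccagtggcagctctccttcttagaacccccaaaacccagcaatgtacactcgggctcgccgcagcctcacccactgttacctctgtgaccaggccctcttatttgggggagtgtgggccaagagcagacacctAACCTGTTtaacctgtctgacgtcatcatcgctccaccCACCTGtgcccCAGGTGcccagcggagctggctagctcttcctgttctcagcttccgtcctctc
Ap1m2 (chr9:21312334-21312583, minus strand): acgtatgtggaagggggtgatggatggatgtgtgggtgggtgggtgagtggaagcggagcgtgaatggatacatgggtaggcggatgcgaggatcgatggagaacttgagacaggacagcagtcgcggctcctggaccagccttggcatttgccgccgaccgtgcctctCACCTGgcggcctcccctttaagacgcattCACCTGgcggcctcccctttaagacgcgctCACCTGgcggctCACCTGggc
Grhl1 (chr12:24572037-24572286, plus strand): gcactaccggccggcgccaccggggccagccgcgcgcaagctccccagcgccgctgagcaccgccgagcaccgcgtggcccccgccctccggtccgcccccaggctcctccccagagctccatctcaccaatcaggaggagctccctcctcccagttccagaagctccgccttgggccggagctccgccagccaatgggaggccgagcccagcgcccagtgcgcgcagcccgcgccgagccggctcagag

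Among the 4 adhesion molecules of the cell border, Cdh1 and Epcam fell, while Cdh3 and F11r were not called. Cdh1 (chr8:106603367-106670246 on mm10) encodes E-cadherin, the core of the epithelial adherens junction. It measured 251, 198, 187 and 209 CPM in wild type libraries 1 to 4 and 170, 101, 119 and 121 CPM in YAP5SA libraries 1 to 4. Every YAP5SA library was below every wild type library, and the log2 fold change was -0.72 ± 0.15 (SE; edgeR adjusted p = 0.0061). Epcam (chr17:87635978-87651137), a homophilic adhesion protein found across simple epithelia, measured 134, 115, 111 and 125 CPM in wild type and 87.9, 69.4, 72.9 and 70.6 CPM in YAP5SA. The groups were again apart, with a log2 fold change of -0.69 ± 0.09 (edgeR adjusted p = 0.00051).

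P-cadherin, encoded by Cdh3, lies 46.2 kb from Cdh1 on the same chromosome. Its values were 112, 153, 178 and 139 CPM in wild type and 169, 161, 172 and 185 CPM in YAP5SA. The groups overlapped, and the log2 fold change was 0.24 ± 0.11 (edgeR adjusted p = 0.19). Without wild type 3 the gene was called higher, at 0.36 (edgeR adjusted p = 0.034). F11r, a junctional adhesion molecule of the immunoglobulin family, had a log2 fold change of -0.05 ± 0.07 (edgeR adjusted p = 0.65), with 84.1 to 101 CPM in wild type and 81.8 to 91.7 CPM in YAP5SA.

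Of the 5 tight junction genes, 4 fell. Ocln (chr13:100496314-100552695) encodes occludin, a membrane-spanning strand protein. It measured 76.4, 62.0, 56.1 and 64.9 CPM in wild type and 42.8, 23.6, 26.6 and 25.4 CPM in YAP5SA, which is a log2 change of -1.13 ± 0.18 (edgeR adjusted p = 0.0017). All YAP5SA values lay below the wild type range, with YAP5SA 1 well above the other mutant libraries. Its neighbour Marveld2, 43.3 kb away, encodes tricellulin of the corners where 3 cells meet. Marveld2 went from 43.3 ± 5.94 to 22.3 ± 4.68 CPM (SD, n = 4 each), a log2 fold change of -0.95 ± 0.15 (edgeR adjusted p = 0.0019).

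The cytoplasmic plaque proteins of the tight junction fell as well. Tjp3, a zonula occludens scaffold, measured 52.4, 37.9, 37.2 and 36.8 CPM in wild type and 27.2, 11.3, 15.5 and 14.4 CPM in YAP5SA. No YAP5SA library reached the wild type range, and the log2 fold change was -1.26 ± 0.24 (edgeR adjusted p = 0.0046). Cgn, which encodes the actomyosin-linked protein cingulin, fell from 90.9 ± 3.46 to 53.4 ± 10.8 CPM (log2 -0.76 ± 0.12, edgeR adjusted p = 0.0015). Marveld3, the remaining membrane protein of this family, had a log2 fold change of -0.67 ± 0.25 that was not called (edgeR adjusted p = 0.093), although its groups did not overlap. With the replicate block it was lower (edgeR adjusted p = 0.025). The Tjp3 locus overlaps Apba3 and Mrpl54 and held fractional counts in all 8 libraries, and the source of the fractions was not tested.

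Desmosome genes split. Pkp3, Dsc2 and Dsp fell, Dsg2 and Jup were not called, and Pkp2 was not called either but had a positive fold change. Pkp3, a plakophilin of the desmosomal plaque, measured 38.3, 20.7, 24.6 and 26.5 CPM in wild type and 14.0, 9.40, 8.50 and 8.45 CPM in YAP5SA. The highest YAP5SA library was below the lowest wild type library, with a log2 fold change of -1.44 ± 0.22 (edgeR adjusted p = 0.0017). Its relative Pkp2 measured 29.9, 28.4, 26.1 and 23.8 CPM in wild type and 52.7, 40.3, 34.4 and 26.2 CPM in YAP5SA. Only YAP5SA 4 lay inside the wild type range of Pkp2. The log2 fold change was 0.51 ± 0.18 (edgeR adjusted p = 0.084), and it was called higher with the replicate block (adjusted p = 0.019) or without YAP5SA 4 (0.67, edgeR adjusted p = 0.014).

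Desmocollin 2, encoded by Dsc2, is one of the desmosomal cadherins. It fell from 69.1 ± 3.03 to 37.5 ± 7.49 CPM (log2 -0.88 ± 0.13, edgeR adjusted p = 0.0011). Its partner Dsg2, a desmoglein, measured 126, 113, 114 and 120 CPM in wild type and 111, 85.9, 102 and 109 CPM in YAP5SA. Those groups did not overlap, but the difference was small, at -0.21 ± 0.08 on the log2 scale (edgeR adjusted p = 0.088, and 0.027 with the replicate block). Dsp, the desmoplakin that ties the plaque to keratin, fell from 207 ± 11.8 to 116 ± 31.0 CPM (log2 -0.83 ± 0.15, edgeR adjusted p = 0.0032). Jup, the plakoglobin shared by desmosomes and adherens junctions, measured 169, 158, 166 and 153 CPM in wild type and 159, 153, 164 and 155 CPM in YAP5SA. These ranges overlapped almost fully, with a log2 fold change of -0.03 ± 0.05 (edgeR adjusted p = 0.69).

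Krt8 and Krt18, which are keratins of simple epithelia, and the keratin-linked Lad1 fell. Krt8 went from 80.1 ± 7.45 to 52.4 ± 6.28 CPM (log2 -0.61 ± 0.09, edgeR adjusted p = 0.0015). Krt18, its filament partner, measured 122, 107, 105 and 99.2 CPM in wild type and 94.4, 93.8, 86.8 and 77.7 CPM in YAP5SA. The groups did not overlap, but at -0.29 ± 0.08 this was the smallest fall among the called genes (edgeR adjusted p = 0.027). The Krt18 call was lost, with adjusted p from 0.052 to 0.083, without YAP5SA 3 or 4 or without wild type 1, 2 or 3. Lad1, which encodes the anchoring protein ladinin, fell from 62.6 ± 10.7 to 26.3 ± 9.83 CPM (log2 -1.25 ± 0.22, edgeR adjusted p = 0.0031). Krt8 has a processed pseudogene in GENCODE and its joined locus spans other keratin genes, so its counts are uncertain.

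Polarity and trafficking genes fell in 4 of 6 cases. Crb3, the transmembrane protein that marks the apical domain, measured 45.9, 34.3, 34.9 and 39.0 CPM in wild type and 21.1, 19.5, 16.7 and 16.0 CPM in YAP5SA. The groups were well apart (log2 -1.07 ± 0.13, edgeR adjusted p = 0.00038). Ap1m2, the adaptor subunit that sorts proteins to the basolateral membrane, had the smallest adjusted p of the 35 genes. It measured 53.9, 50.6, 45.3 and 51.3 CPM in wild type and 28.4, 19.5, 22.4 and 21.2 CPM in YAP5SA, which is a log2 change of -1.13 ± 0.12 (edgeR adjusted p = 0.00018). Rab25, a small GTPase of the apical recycling endosome, fell from 31.8 ± 6.01 to 15.2 ± 4.00 CPM (log2 -1.06 ± 0.19, edgeR adjusted p = 0.0035).

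The myosin motor of the same recycling pathway, Myo5b, was the gene called lower whose groups overlapped. It measured 49.4, 28.2, 32.8 and 28.6 CPM in wild type and 30.7, 15.1, 15.9 and 17.98 CPM in YAP5SA, so YAP5SA 1 lay above 2 wild type libraries. Its log2 fold change was -0.80 ± 0.25 (edgeR adjusted p = 0.049, and 0.00086 with the replicate block), and the call was lost without any single library other than YAP5SA 1. Epn3, an epsin of clathrin-coated pits, was not called at -0.64 ± 0.24 (edgeR adjusted p = 0.098). It was lower with the replicate block (adjusted p = 0.0074) and without YAP5SA 1 (-0.89, edgeR adjusted p = 0.015). Llgl2, a basolateral polarity protein, measured 66.6 to 88.0 CPM in wild type and 66.5 to 89.5 CPM in YAP5SA, with a log2 fold change of -0.04 ± 0.11 (edgeR adjusted p = 0.87). The Crb3 locus overlaps Dennd1c and held fractional counts in all 8 libraries.

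All 4 genes of the matriptase cascade fell. St14 encodes matriptase, a protease anchored in the epithelial surface. It measured 107, 85.7, 90.3 and 94.7 CPM in wild type and 62.9, 30.3, 41.3 and 48.0 CPM in YAP5SA, which is a log2 change of -1.04 ± 0.17 (edgeR adjusted p = 0.0024). Prss8, the partner protease prostasin, measured 66.1, 52.6, 48.3 and 58.6 CPM in wild type and 32.2, 21.7, 21.5 and 22.1 CPM in YAP5SA (log2 -1.20 ± 0.15, edgeR adjusted p = 0.00044). For both proteases the mutant libraries lay below every wild type library, and YAP5SA 1 was the highest of them.

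Both Kunitz inhibitors that restrain these proteases fell. Spint1 went from 74.3 ± 13.3 to 34.6 ± 8.79 CPM (log2 -1.10 ± 0.17, edgeR adjusted p = 0.0017). Spint2 measured 111, 92.0, 96.7 and 100.3 CPM in wild type and 69.95, 61.5, 64.1 and 64.0 CPM in YAP5SA. Its mutant libraries lay close together, and the log2 fold change was -0.62 ± 0.07 (edgeR adjusted p = 0.00024). The Prss8 locus overlaps Myst1 and held fractional counts in all 8 libraries.

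Both epithelial splicing regulators fell. Esrp1 (chr4:11331936-11386801) measured 113, 96.3, 91.6 and 118 CPM in wild type and 70.9, 32.6, 45.1 and 46.0 CPM in YAP5SA. YAP5SA 1 came nearest to the wild type range without entering it, and the log2 fold change was -1.10 ± 0.19 (edgeR adjusted p = 0.0028). Esrp2 measured 87.4, 54.7, 56.2 and 65.7 CPM in wild type and 46.7, 32.2, 33.7 and 37.6 CPM in YAP5SA (log2 -0.81 ± 0.16, edgeR adjusted p = 0.0060). The Esrp2 groups were also apart. Its locus overlaps Nfatc3 and 1810019D21Rik and held fractional counts in all 8 libraries. The splicing of their target transcripts was not analysed here.

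The 5 transcription factors held both ends of the range. Ovol1 (chr19:5549136-5571739), a zinc finger repressor, fell the most of the 35 genes. It measured 14.6, 9.26, 9.60 and 17.4 CPM in wild type and 5.63, 1.66, 3.37 and 4.02 CPM in YAP5SA, which is a log2 change of -1.77 ± 0.34 (edgeR adjusted p = 0.0052). Its relative Ovol2 fell at a lower level, from 5.92 ± 1.37 to 2.65 ± 0.889 CPM (log2 -1.14 ± 0.29, edgeR adjusted p = 0.019). The Ovol2 call was lost without YAP5SA 2, 3 or 4 or without wild type 1 or 2, with adjusted p from 0.053 to 0.060.

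The 3 Grainyhead-like genes moved in both directions. Grhl2 (chr15:37231900-37363568), an activator of Cdh1 and other junction genes, measured 91.7, 78.4, 75.4 and 86.1 CPM in wild type and 54.7, 28.3, 29.5 and 30.9 CPM in YAP5SA (log2 -1.20 ± 0.19, edgeR adjusted p = 0.0017). Grhl3, which acts in the epidermal barrier, measured 32.1, 20.7, 20.2 and 24.2 CPM in wild type and 15.2, 5.53, 6.34 and 7.24 CPM in YAP5SA (log2 -1.49 ± 0.30, edgeR adjusted p = 0.0065). In both, YAP5SA 1 was about midway between the other mutant libraries and wild type. Grhl1 (chr12:24572286-24617391), known for its role in desmosomes of the skin, measured 9.69, 6.17, 7.80 and 5.21 CPM in wild type and 10.9, 12.7, 10.9 and 14.4 CPM in YAP5SA. Every YAP5SA library was above every wild type library, and the gene rose by 0.76 ± 0.21 on the log2 scale (edgeR adjusted p = 0.032). The Grhl1 call rests on few fragments: without YAP5SA 2, 3 or 4 or without wild type 2, 3 or 4 it was lost, with adjusted p from 0.053 to 0.084.

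**Figure D2:**
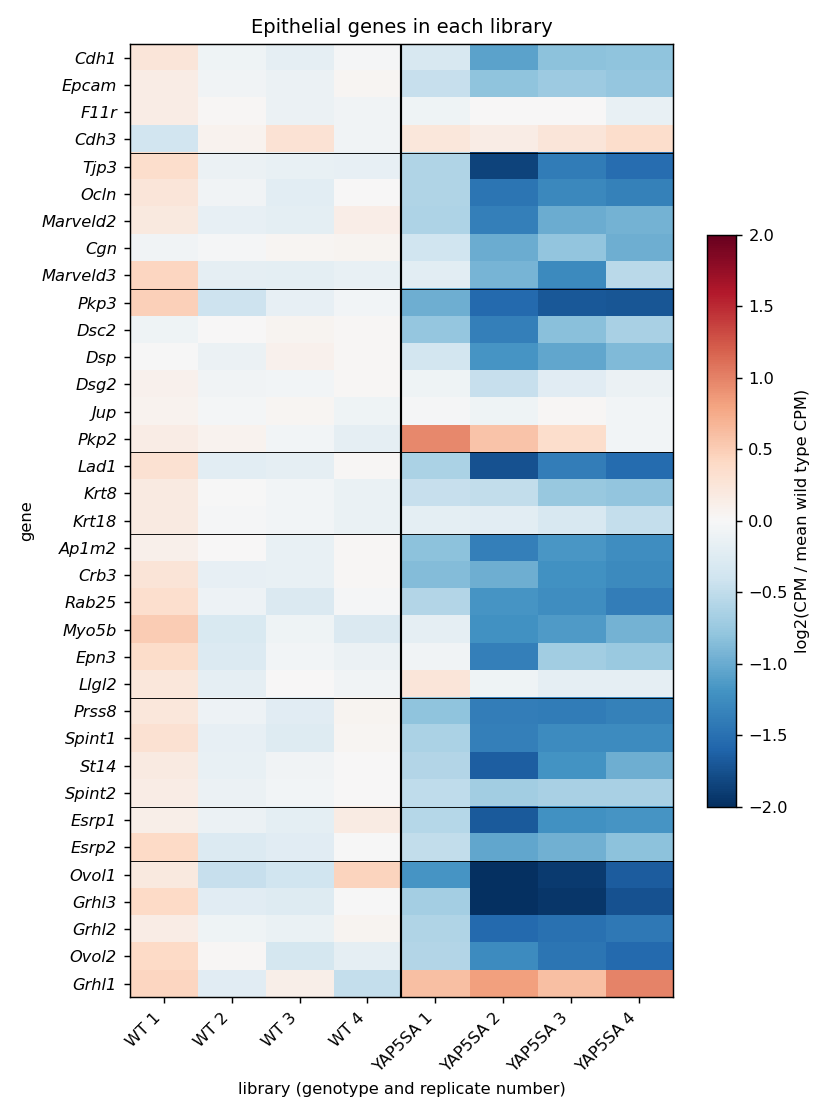
Level of each of the 35 genes in each of the 8 libraries, as log2 of its CPM over the gene's mean wild type CPM (colour scale from -2 to 2), with genes in rows by role. The YAP5SA columns are blue for most rows, YAP5SA 1 is the palest of the 4 in most of them, and Cdh3 and Grhl1 are above the wild type mean in all 4 YAP5SA libraries, as is Pkp2 in all but YAP5SA 4.

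Levels can be compared between genes only per transcript length, as in the FPKM the authors deposited. In wild type stomach, Krt18 and Spint2 stood highest at 88.6 ± 8.23 and 88.6 ± 7.30 FPKM (SD, n = 4), which do not differ beyond their spread. Epcam followed at 69.3 ± 4.87 FPKM, then Krt8, Cdh1 and Cdh3 at 49.2 ± 4.59, 49.1 ± 6.54 and 44.6 ± 8.48 FPKM, again within their spread of one another. The lowest levels belonged to Grhl1 at 2.23 ± 0.628, Ovol1 at 4.61 ± 1.44, the motor Myo5b at 5.27 ± 1.52 and Ovol2 at 5.44 ± 1.40 FPKM. In YAP5SA stomach Krt18 led at 72.7 ± 6.51 FPKM, Cdh3 (52.6 ± 3.00 FPKM) stood above Cdh1 (29.9 ± 6.95 FPKM), and Ovol1 was lowest at 1.34 ± 0.603 FPKM.

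A second edgeR fit asked which genes changed by more or less than Epcam, by taking the fragment count of Epcam as the size of each library. Epcam's own counting error and spread are shared by every locus in this fit, and on simulated data the fit made more false calls than its threshold allows, so its adjusted p-values are too small. The fit was repeated with Cdh1 and with the summed epithelial genes, which fell as well and are not independent references. Of all 14573 loci, 84.7% were called relative to Epcam, 82% higher and 2.72% lower. Among the 34 other epithelial genes 8 were higher, 14 were lower and the rest were not called. Relative to Cdh1, 8 were higher and 7 were lower, against 81.6% and 2.22% of all loci (83.8% in either direction). Relative to the summed epithelial genes without the keratins, 8 were higher and 15 were lower, against 79.7% and 3.47% of all loci (83.1% in either direction).

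The same 8 genes were higher against Epcam, against Cdh1 and against the summed epithelial genes: Cdh3, F11r, Dsg2, Jup, Pkp2, Krt18, Llgl2 and Grhl1. Since Epcam fell, most loci are higher on this scale, so the direction says only that these 8 genes did not fall as far as Epcam did. The CPM ratio to Epcam was higher in every YAP5SA library than in any wild type library for each of the 8, and for 75% of all loci. Their log2 fold changes relative to Epcam ran from 0.40 ± 0.13 for Krt18 (edgeR adjusted p = 0.0034) to 1.46 ± 0.24 for Grhl1 (edgeR adjusted p = 5.1e-08). Jup, F11r and Llgl2, which did not change in CPM by more than their error, were 0.66 ± 0.13, 0.64 ± 0.13 and 0.65 ± 0.13 higher relative to Epcam.

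Against all 3 references, 7 genes were lower: Tjp3, Pkp3, Lad1, Prss8, Grhl2, Grhl3 and Ovol1. These 7 also stayed lower relative to Epcam without any one library. Ovol1 fell by 1.10 ± 0.27 on the log2 scale more than Epcam did (edgeR adjusted p = 9.9e-05), Grhl3 by 0.83 ± 0.20 (adjusted p = 9.9e-05) and Pkp3 by 0.76 ± 0.18 (adjusted p = 0.00010). The other 7 genes lower relative to Epcam, Ocln, Crb3, Rab25, Ap1m2, St14, Spint1 and Esrp1, were also lower relative to the summed genes, as was Marveld2, but were not called relative to Cdh1. The CPM ratio to Epcam was lower without overlap for 13 of the 34 genes and for 1.77% of all loci. For Cdh1 itself the change relative to Epcam was -0.05 ± 0.13 (edgeR adjusted p = 0.74), and for Krt8 it was 0.08 ± 0.13 (adjusted p = 0.59).

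The scaling to library size cancels in a ratio of related genes within a library. These pairs were picked after the values were seen, so they are given as a description. Depth need not cancel between genes of unlike coverage. Within a genotype, counts grew with depth with a slope of 1.62 ± 0.20 (SE) at up to 0.05 fragments per exonic base. The slope was 0.52 ± 0.11 at over 0.3 fragments per base, and 1 means growth in proportion. Every YAP5SA library held more fragments than any wild type library, and the part of depth in these ratios was not tested. The Cdh3 to Cdh1 ratio of FPKM was 0.589, 1.03, 1.26 and 0.872 in wild type and 1.30, 2.09, 1.90 and 1.99 in YAP5SA, without overlap. The Pkp2 to Pkp3 ratio went from 1.06 ± 0.302 to 3.83 ± 0.50, and the Grhl1 to Grhl2 ratio from 0.149 ± 0.0425 to 0.620 ± 0.206, with the lowest YAP5SA library above the highest wild type library in both. The Dsg2 to Dsc2 ratio went from 1.30 ± 0.126 to 2.09 ± 0.268, also without overlap.

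The Krt8 to Krt18 ratio was 0.552, 0.570, 0.549 and 0.551 in wild type and 0.464, 0.459, 0.418 and 0.452 in YAP5SA. The wild type libraries agreed closely, and all YAP5SA libraries were lower. Other ratios overlapped between the genotypes. Esrp1 to Esrp2 was 1.49 ± 0.248 and 1.26 ± 0.251, Grhl3 to Grhl2 was 0.609 ± 0.101 and 0.476 ± 0.0682, and Spint1 to Spint2 was 0.377 ± 0.0397 and 0.269 ± 0.0519.

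**Figure D3:**
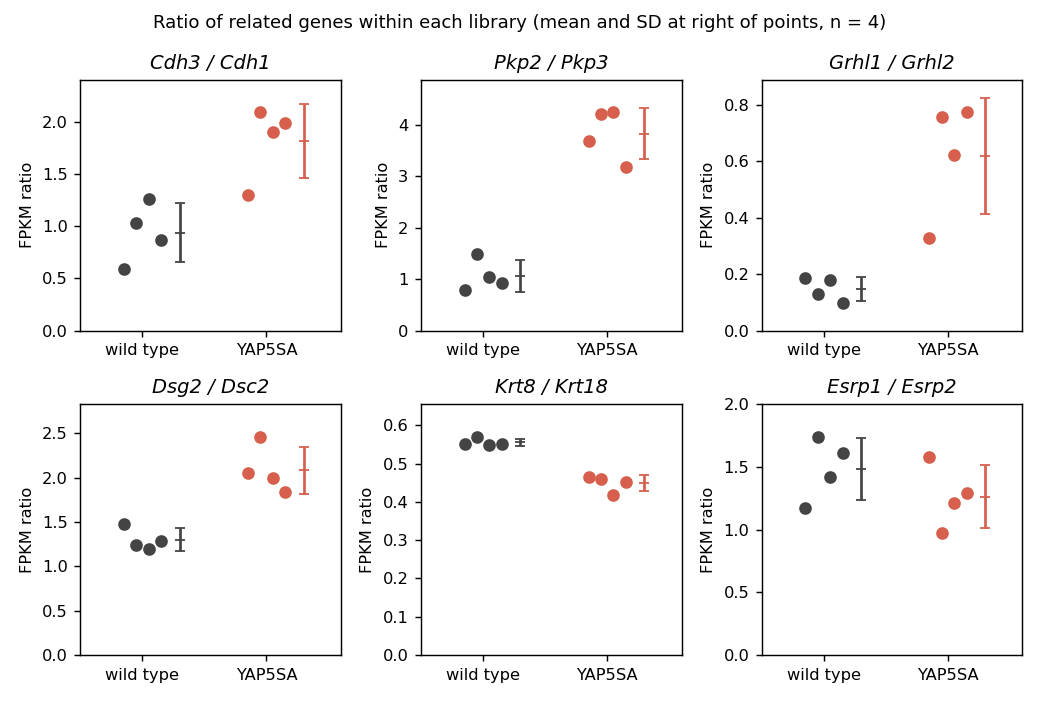
FPKM ratio of 6 pairs of related genes in each library (points), with the mean and SD of 4 libraries beside them, for wild type (dark) and YAP5SA (red). The genotypes are apart for Cdh3 to Cdh1, Pkp2 to Pkp3, Grhl1 to Grhl2, Dsg2 to Dsc2 and Krt8 to Krt18, and overlap for Esrp1 to Esrp2.

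Other genes of junctions and plaques were less uniform. Of 20 tested, 7 were lower and 3 were higher, with a median log2 fold change of -0.21. The plaque proteins periplakin (Ppl) and envoplakin (Evpl) fell by 1.67 ± 0.32 and 1.07 ± 0.20 on the log2 scale (edgeR adjusted p = 0.0049 and 0.0041). Dsc3, a desmocollin of stratified epithelia that neighbours Dsc2 at a distance of 28.5 kb, went the other way. It measured 5.402, 7.94, 11.4 and 4.58 CPM in wild type and 27.2, 30.4, 49.4 and 31.1 CPM in YAP5SA, with no overlap and a log2 fold change of 2.23 ± 0.28 (edgeR adjusted p = 0.00053).

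The polarity complexes shared by many cell types had a median log2 fold change of 0.01, with 2 of 14 genes higher and 1 lower, near the shares of all loci (9.06% and 9.85%). The atypical protein kinases C at their centre differed: Prkcz fell by 0.96 ± 0.14 (edgeR adjusted p = 0.0012) and Prkci rose by 0.29 ± 0.04 (edgeR adjusted p = 0.00067). Of 22 other epithelial genes, 12 were lower and none was higher, with a median of -0.66; at an unadjusted p under 0.05 there were 15 lower and 0 higher, and DESeq2 called 13 lower and 0 higher. They included Tmprss2 (-1.46 ± 0.18), Elf3 (-1.39 ± 0.21), Krt19 (-0.57 ± 0.09) and Myo5c (-0.64 ± 0.11, in a joined locus with Gnb5), with edgeR adjusted p from 0.00048 to 0.0028. Krt7, another keratin of simple epithelia in this list, was not called (-0.13 ± 0.07, edgeR adjusted p = 0.26), and its groups overlapped.

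Among 10 mesenchymal counterparts, which include repressors of the epithelial program, 3 were higher and 1 was lower, with a median log2 fold change of 0.02. Snai1, a zinc finger repressor of Cdh1, measured 25.1, 25.9, 19.5 and 17.7 CPM in wild type and 42.2, 41.2, 39.3 and 40.9 CPM in YAP5SA. The YAP5SA libraries lay close together and above all wild type libraries (log2 0.89 ± 0.12, edgeR adjusted p = 0.00078). Zeb1 rose by 0.28 ± 0.06 (adjusted p = 0.011) and Twist2 by 0.42 ± 0.11 (adjusted p = 0.020), and Snai2 fell by 0.34 ± 0.08 (adjusted p = 0.017). In whole tissue these levels include the mesenchyme, and the cells that hold the transcripts were not resolved.

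Marker lists of the cells a dissected stomach can hold were set beside the shares of all loci called (9.06% higher and 9.85% lower). Some lists moved with genotype, while others, such as endothelium and mesothelium, had few genes called. Their part in the epithelial values was not tested. All 10 foregut epithelium markers were lower, with a median of -1.38 on the log2 scale and summed levels of 548 to 693 CPM in wild type and 161 to 354 CPM in YAP5SA. Examples are Sox2 (-1.36 ± 0.19), Foxa1 (-1.39 ± 0.21), Foxa2 (-1.05 ± 0.15) and Hnf4a (-1.18 ± 0.16), with edgeR adjusted p from 0.00082 to 0.0013. YAP5SA 1 was the highest mutant library for this sum too, as it was for the 35 genes.

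Mesothelium, which also carries keratins and cadherins, had 1 of 6 markers lower (Upk3b) and summed to 300.5 to 489.4 CPM in wild type and 292.9 to 359.2 CPM in YAP5SA. Endothelium, where Jup and F11r are also found, had 1 of 8 higher (Kdr) and summed to 624 to 744 CPM and 711 to 810 CPM. Macrophage markers were higher in 6 of 7 (the exception, Cd68, lies in a joined locus with Eif4a1), with summed levels of 357 to 433 CPM and 561 to 788 CPM. Enteric neuron markers were lower in 5 of 6, with summed levels of 370 to 437 CPM and 184 to 241 CPM.

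Signs of neighbouring organs varied between libraries. Liver markers were higher in 4 of 6 (1 of 6 with the replicate block), with summed levels of 57.3 to 132 CPM in wild type and 89.7 to 275 CPM in YAP5SA, where YAP5SA 1 was lowest. None of 5 tested pancreas markers was called by edgeR, with 0 at an unadjusted p under 0.05 and 0 by DESeq2, and 1 of 3 intestine markers was lower (Vil1; 2 with the replicate block). Intestine markers summed to 12.3 to 40.2 CPM in wild type and 3.37 to 21.6 CPM in YAP5SA. No marker of any of these lists was at 0 in every library.

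The deposited counts had a further property that touches the most abundant genes. Within a genotype, counts of loci with over 0.3 fragments per exonic base grew with library depth with a slope of 0.52 ± 0.11 (SE), where 1 means growth in proportion. The slope was 1.62 ± 0.20 for loci with up to 0.05 fragments per base. Epcam, Cdh1 and Krt18 lie in the densest class, and Krt8 lies at 0.2 to 0.3. Across the 26 genes called lower, the log2 fold change and the log2 density had a Pearson r of 0.62, with the larger falls at the thinly covered genes, while r was 0.00 over all 35. The 26 genes were picked by their call, and thinly covered genes need a larger fall to be called. The r of 0.62 is therefore no support for a relation. These correlations run across genes of the same 8 libraries, which are not independent, and the part of density in the size of the falls was not tested.

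**Figure D4:**
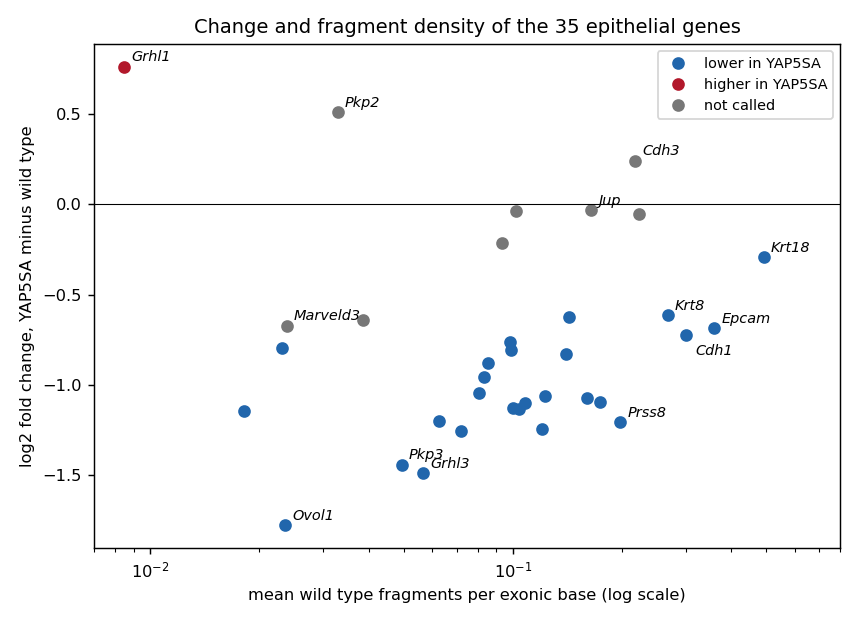
Log2 fold change (YAP5SA minus wild type, linear axis) of the 35 genes against their mean wild type fragments per exonic base (log axis), coloured by call. The 4 densest genes called lower, Krt18, Epcam, Cdh1 and Krt8, have changes between -0.29 and -0.72, and Grhl1 has the lowest density (0.00849).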

How the data were processed

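Messenger RNA of 8 embryonic stomach libraries was analysed, 4 a genotype, with groups and replicate numbers from the labels. The submitters' processing notes name TopHat2 2.0.9, Cuffdiff and Cufflinks 2.2.1 with the build mm10; whether counting used strand is not stated there. The authors deposited raw fragments per locus and library, which are estimated counts (10.9% to 11.3% of values per library were not whole), and FPKM. The deposited table numbers the libraries of a genotype 0 to 3, which was read as the labels' 1 to 4. Counts were rounded to whole numbers. Unnamed loci (1.85% to 1.97% of fragments) entered neither library sizes nor tests.

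Differences were tested with edgeR 4.0.16 (quasi-likelihood, robust, TMM factors, filterByExpr with 10 fragments in enough libraries and 15 in total) in R 4.3.3 on 14574 loci. Fold changes are YAP5SA minus wild type, and calls are two-sided at an adjusted p under 0.05 (Benjamini-Hochberg). Since separate embryos are not stated, p-values measure only the spread between libraries, which may be technical. The fit relative to Epcam used the log count of Epcam as the offset. Deviations of same-numbered libraries from their group means correlated at 0.220, 0.143, 0.141 and 0.206, so the numbers were taken to pair the libraries, and a fit with the number as a block was run. Alternatives were other library-size factors, DESeq2 1.42.0, limma-voom and limma 3.58.1 on log2(FPKM + 1) or log2(FPKM + 0.1), other filters, joined loci left out, other references, and each library left out. Leaving out both libraries numbered 1 was added after the data were seen. The fits were tested on simulated data, where the fit relative to a reference gene made more false calls than its threshold allows.

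The 35 genes and the 12 further lists were chosen with earlier results of these data known. All 35 genes are named, and of each list up to 4 genes with the smallest p, with Krt7 and Cd68 named besides. Coordinates come from the authors' tables on mm10, exon lengths and gene classes from GENCODE. The 35 genes held 12 to 1581 fragments in a library.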

Additional observations from a re-analysis of the deposited data

Results flagged for a closer look

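For each of the 35 epithelial genes, the 4 CPM values of each genotype were checked for a library whose gap to its nearest neighbour took up more of the group's range than Dixon's critical value for 4 samples allows, which chance gives in about 1 of 20 groups. Of 70 groups, 7 held such a library. In 5 it was YAP5SA 1, the highest in each: Ocln at 42.8 CPM against 23.6, 26.6 and 25.4, Pkp3 at 14.0 CPM against 9.40, 8.50 and 8.45, Prss8 at 32.2 CPM against 21.7, 21.5 and 22.1, Spint1 at 47.7 CPM against 28.7, 30.9 and 31.0, and Grhl2 at 54.7 CPM against 28.3, 29.5 and 30.9. In the other 2 it was wild type 1: Marveld3 at 16.2 CPM against 10.6, 10.5 and 10.9, and Tjp3 at 52.4 CPM against 37.9, 37.2 and 36.8. All 7 flagged libraries carry the replicate number 1 and are high. The groups still did not overlap for these 7 genes, and the falls of the 6 among them that were called kept their call without any single library.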

How the results depend on the processing

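Over all settings of the comparison by library size, 23 to 29 of the 35 genes were lower, and the replicate block changed no call of an epithelial gene other than Marveld3, Dsg2, Epn3 and Pkp2. With the block, 2 genes were higher, and leaving out 1 library gave 0 to 1. With Cdh1 as the reference, 7 genes were lower relative to it. Of the list counts over all settings, 42 moved and 414 did not. Higher liver markers numbered 0 by limma on FPKM with a pseudocount of 0.1 and by limma-voom, 2 with a pseudocount of 1 and with the stricter filter, 1 with the replicate block, and 2 to 4 without a single library. Lower mesothelium markers numbered 2 by DESeq2, 0 by limma on FPKM with either pseudocount, 4 without both libraries numbered 1, and 0 to 4 without a single library. Lower intestine markers numbered 0 without a filter, 2 with the block, and 0 to 1 without a single library. Without a single library, higher junction genes numbered 2 to 5, higher polarity genes 1 to 3 and lower mesenchymal counterparts 0 to 2. Without both libraries numbered 1 there were 1 higher polarity gene and 0 lower mesenchymal counterparts.

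Signs turned in genes that were not called. Without a single library, log2 fold changes ran from -0.08 to 0.01 for F11r, -0.06 to 0.0019 for Jup, -0.14 to 0.06 for Llgl2, -0.04 to 0.13 for Emcn, -0.15 to 0.03 for Cldn5, -0.54 to 0.0010 for Pdx1 and -0.43 to 0.14 for Cpa1. Without both libraries numbered 1, F11r was 0.01, Cldn5 0.06 and Cpa1 0.13. On FPKM with either pseudocount, Llgl2 was 0.04 and Cldn5 0.05. Relative to Epcam without a single library, changes ran from -0.12 to 0.02 for Cdh1, -0.01 to 0.11 for Krt8, -0.31 to 0.03 for Myo5b, -0.13 to 0.18 for Epn3 and -0.09 to 0.15 for Marveld3. With the block Marveld3 was -0.01 relative to Epcam. Against the summed genes Marveld3 was -0.08, Epn3 -0.06 and Spint2 -0.01. The cause was not tested. Depth limits the least covered genes most: the lowest count of an epithelial gene in a library was 12 fragments.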
